A study of Saccharomyces cerevisiae with 22 samples.

Results

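Snf1 is the yeast AMP-activated protein kinase, the enzyme that cells need to use carbon sources other than glucose. The genes described here are the 10 that encode the kinase, its activators and its phosphatase, taken by name from the 5381 genes of the deposited table. They are SNF1 (the catalytic subunit), SNF4 (the gamma subunit), SIP1, SIP2 and GAL83 (alternative beta subunits), SAK1, TOS3 and ELM1 (the upstream kinases), REG1 (a regulatory subunit of the phosphatase) and GLC7 (its catalytic subunit). All 10 were found and all passed the filter on low counts in polyA RNA and in footprints.

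The study sequenced ribosome footprints (mRNA pieces shielded from nuclease by ribosomes) and RNA from Saccharomyces cerevisiae starved for glucose for 15 min and from cells kept in glucose. The strains were EY0690, labelled as w303, and BY4741, of the S288C background. All cultures grew at 30 °C to an OD600 of 0.3 to 0.4 and received cycloheximide, which halts elongation, at 100 ug/ml for 1 min, the glucose cultures included. Each strain and condition had 2 footprint libraries and 2 polyA RNA libraries. Unselected RNA had 1 library per condition in BY4741 (total RNA) and, in EY0690, 1 deposited value per condition that pools total and RiboZero-depleted RNA. The labels do not say that same-group libraries came from separate cultures, so p-values measure the spread between these libraries only, which may be technical.

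Downstream counts, those beyond the start region of the coding sequence, totalled between 698310 and 8110916 per library. Both BY4741 footprint libraries numbered 2 stood apart: across genes their levels correlated with the matching polyA library at 0.942 (starved) and 0.946 (glucose), against 0.822 to 0.875 in the other 6 footprint libraries. Results that rest on footprints are given with and without them where they differ. Levels are TMM-scaled counts per 1000000 counts (CPM). Changes are log2 ratios with their standard error (SE) from edgeR's quasi-likelihood test, and a gene passed at a Benjamini-Hochberg adjusted p under 0.05 over all genes tested. Such changes are relative to the other mRNAs, since bulk samples cannot show the amount per cell.

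As background, the kinase is a trimer of Snf1, Snf4 and 1 of the 3 beta subunits. Snf4 relieves autoinhibition of Snf1, and the beta subunits hold the trimer together and set where it goes: Gal83 takes it to the nucleus, Sip1 to the vacuole membrane, and Sip2 keeps it in the cytoplasm. When glucose is scarce, Sak1, Tos3 and Elm1 phosphorylate a threonine in the activation loop of Snf1, and Reg1 directs the protein phosphatase Glc7 to remove that phosphate when glucose is plentiful. Much of this control is exerted on the proteins, which these libraries do not measure.

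The stretch that carries the regulated threonine is shown because it is the point where the upstream kinases and the phosphatase meet. It lies on the plus strand of IV:1412985-1413017 (build R64), inside the only coding exon of SNF1 (YDR477W), and spans codons 205 to 215. The capitals mark codon 210, which encodes the threonine.
SNF1 activation loop: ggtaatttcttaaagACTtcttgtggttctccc

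The start codons of the beta subunits are shown because the next codon differs among them. SIP1 (YDR422C, minus strand, IV:1317756-1317785) and SIP2 (YGL208W, plus strand, VII:97326-97355) have a glycine codon after the start, gga in SIP1 and ggt in SIP2, and both proteins are known to carry a myristoyl group on that glycine. GAL83 (YER027C, minus strand, V:210215-210244) has gct, an alanine codon, there. The capitals mark the start codon, with 12 bases before it.
SIP1 start: gttgcagccgccATGggaaacagtccttct
SIP2 start: agtgaagtttctATGggtactacgacaagt
GAL83 start: ctacactgaaatATGgctggcgacaaccct

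In polyA RNA, glucose withdrawal was followed by higher SIP2, SNF1 and GAL83 and lower SAK1. The other 6 members did not pass the test. The 4 called members compare with 39.6% of all genes called in this comparison (20.4% higher and 19.2% lower), so the share of members called was near that of genes at large. The median change of the 10 members was 0.18, against -0.03 for all genes tested.

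SIP2 had the largest change of the 10. Its polyA level was 127 and 109.6 CPM in the starved EY0690 libraries, against 39.8 and 46.8 CPM in those with glucose. In BY4741 it was 48.9 and 38.7 CPM starved, against 14.1 and 18.3 CPM in glucose. Starved libraries lay above glucose libraries within each strain, while starved BY4741 overlapped glucose EY0690. The change was 1.44 ± 0.16 (log2, SE, n = 4 libraries per condition), 2.72-fold, with an adjusted p of 2.5e-05 by edgeR. It was called in all 16 alternatives tried, between 1.33 and 1.53.

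SNF1, the catalytic subunit, had 154 and 147 CPM in starved EY0690, against 92.7 and 109 CPM in glucose EY0690. In BY4741 it had 102 and 78.8 CPM starved, against 64.7 and 64 CPM in glucose. Both strains moved upward without overlap within the strain, and the fitted change was 0.53 ± 0.14 (edgeR adjusted p = 0.0108). BY4741 alone, where 7.88% of genes passed, gave 0.53 with an adjusted p of 0.179.

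GAL83, the beta subunit of the nuclear form, had 149 and 161 CPM in starved EY0690, against 114 and 112 CPM in glucose. In BY4741 it had 134 and 88.6 CPM starved, against 79.7 and 69.4 CPM in glucose. Starved libraries were again the higher ones in each strain. The change was 0.52 ± 0.16 (edgeR adjusted p = 0.0204), and of the 4 calls it was lost most often, in 5 of the 16 alternatives tried. The adjusted p was 0.0709 without the second glucose BY4741 polyA library, 0.0513 without the second starved EY0690 polyA library and 0.0503 with library size alone as the scale. Neither strain alone reached the threshold, at 0.46 in EY0690 (adjusted p = 0.104) and 0.61 in BY4741 (adjusted p = 0.171).

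SAK1, known as the main upstream kinase of Snf1, had 59.0 and 63.6 CPM in starved EY0690, against 81.5 and 88.2 CPM in glucose. In BY4741 it had 65.2 and 84.3 CPM starved, against 108 and 111 CPM in glucose. Starved libraries were lower in each strain, with a change of -0.51 ± 0.14 (edgeR adjusted p = 0.0131). The call held on leaving out any 1 polyA library, and neither strain alone reached it (-0.46 in EY0690 with an adjusted p of 0.117, -0.51 in BY4741 with an adjusted p of 0.213).

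Among the members that did not pass, REG1 had a change of 0.29 ± 0.14 (adjusted p = 0.123), TOS3 0.41 ± 0.25 (adjusted p = 0.217) and ELM1 -0.27 ± 0.15 (adjusted p = 0.154). SNF4, at 0.02 ± 0.17, SIP1, at 0.07 ± 0.15, and GLC7, at -0.15 ± 0.18, lay closest to 0. Their 95% intervals bound what could be missed: -0.35 to 0.39 for SNF4, -0.25 to 0.40 for SIP1 and -0.55 to 0.24 for GLC7. No member separated all 4 starved from all 4 glucose libraries, which 21.0% of genes did. Within both strains, and in the same direction, SNF1, SIP2, GAL83 and REG1 were higher and SAK1 and ELM1 lower without overlap. That is 6 of 10 members, against 45.5% of all genes (21.9% higher and 23.6% lower).

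**Figure D1:**
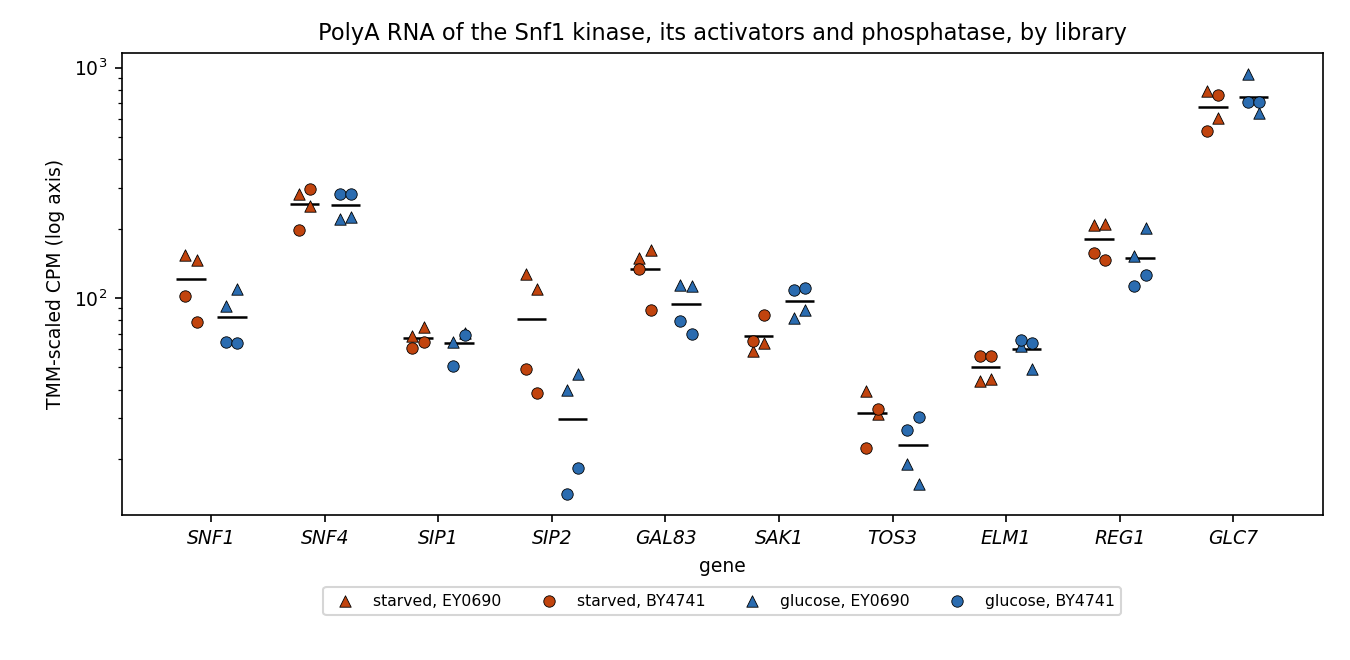
Each point is the polyA RNA level of 1 library, in TMM-scaled CPM on a log axis, for the 10 genes. Starved libraries stand left of glucose libraries, triangles are EY0690 and circles BY4741, and the black line is the mean of the 4 libraries. SIP2 shows the widest gap, with means of 81.0 CPM starved and 29.8 CPM in glucose.

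Unselected RNA, with 1 value per strain and condition and so no test, gave values on the same side of 0 for the 4 called members. The starved over glucose log2 ratio of SIP2 was 0.93 in EY0690 and 1.17 in BY4741. SNF1 had 0.31 in EY0690 and 0.39 in BY4741, and GAL83 had 0.29 in EY0690 and 0.38 in BY4741. SAK1 stood at -0.48 in EY0690 and -0.82 in BY4741. The median gene was at -0.07 in EY0690 and -0.15 in BY4741. ELM1, which did not pass in polyA RNA, had -0.52 in EY0690 and -0.74 in BY4741, and TOS3 had 0.67 in EY0690 and 0.55 in BY4741. SNF4 had 0.12 in EY0690 and 0.21 in BY4741. On the other side of 0 from their polyA changes, GLC7 had 0.34 in EY0690 and 0.17 in BY4741. SIP1 did so too, with -0.10 in EY0690 and -0.24 in BY4741. REG1 had 0.01 in EY0690 and -0.12 in BY4741. With all libraries on 1 TMM scale, REG1 in BY4741 had 266 CPM starved and 257 CPM in glucose, so its side of 0 depended on the scale. With polyA and unselected RNA in 1 edgeR fit, 6 members passed, against 50.0% of genes: the 4 above, TOS3 at 0.51 (adjusted p = 0.0389) and ELM1 at -0.33.

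TOS3 had the largest fitted difference between the strains' responses in polyA RNA. It had 39.5 and 31.4 CPM in starved EY0690, against 18.9 and 15.6 CPM in glucose, and 22.4 and 32.9 CPM in starved BY4741, against 26.7 and 30.3 CPM in glucose. The groups separated in EY0690, where the change was 1.03 (edgeR adjusted p = 0.0171, where 30.9% of genes passed), and overlapped in BY4741, where it was 0.00. The difference between the strains' responses, 1.07 ± 0.43, had an unadjusted p of 0.0263 and an adjusted p of 0.782 in edgeR, so it did not pass. No member passed this interaction test in polyA RNA, where 0.170% of genes did, and 1 member, TOS3, had an unadjusted p under 0.05. DESeq2 also called 0 members. The depth is low here: the second glucose EY0690 library held 20 counts of TOS3. Leaving out the first starved BY4741 polyA library brought TOS3 past the threshold in the response of both strains together, at 0.64 (adjusted p = 0.0462).

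In footprints, no member passed the test for glucose withdrawal, against 3.19% of all genes (2.93% higher and 0.259% lower). By edgeR 0 of 10 members had an unadjusted p under 0.05, and DESeq2 called 0. The median member change was -0.16, against -0.03 for all genes. Precision was lower than in polyA RNA, with SEs from 0.23 to 0.37, and the 95% intervals of SNF1 (-0.41 to 0.60) and SAK1 (-0.88 to 0.34) still include the change seen in their mRNA. Those of GAL83, at -0.28 ± 0.24 (edgeR adjusted p = 0.668, 95% interval -0.79 to 0.24), and SIP2 (-0.11 to 1.10) do not reach the fitted changes of their mRNA, 0.52 for GAL83 and 1.44 for SIP2. The mRNA changes had 95% intervals of their own, 0.18 to 0.86 for GAL83 and 1.09 to 1.80 for SIP2, which overlap those of the footprints. The direct edgeR test of footprints against polyA RNA passed for neither (adjusted p = 0.207 for GAL83 and 0.153 for SIP2).

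SIP2 was the member whose starved footprint libraries lay above the glucose ones within each strain, as for 8.99% of all genes. It had 54.7 and 35.1 CPM in starved EY0690, against 35.1 and 35.1 CPM in glucose, and 25.3 and 15.9 CPM in starved BY4741, against 14.4 and 12 CPM in glucose. In EY0690 the separation was thin, since the second starved library was level with the glucose ones. The change was 0.49 ± 0.28 (edgeR adjusted p = 0.455, 95% interval -0.11 to 1.10).

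SIP1, the beta subunit of the vacuolar form, leaned the other way. It had 36.4 and 42.7 CPM in starved EY0690, against 97 and 74 CPM in glucose, with a gap between the groups. In BY4741 it had 68.6 and 40.6 CPM starved, against 65.8 and 45.5 CPM in glucose, with full overlap. EY0690 alone gave -1.12 (edgeR adjusted p = 0.0172, where 11.1% of genes passed), and both strains together gave -0.54 ± 0.29 (adjusted p = 0.424). The difference between the strains was -1.08 ± 0.51 (edgeR adjusted p = 0.997).

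In EY0690, the footprints of GAL83, SAK1, TOS3, ELM1 and REG1 were likewise lower in both starved libraries than in both glucose libraries, without reaching the threshold. With SIP1 that makes 6 of 10 members, against 29.0% of all genes. The EY0690 counts of TOS3 were 13 and 8 in starved and 13 and 8 in glucose libraries, so its separation rests on library scaling alone. SAK1 had 55.4 and 38.9 CPM in starved EY0690, against 102 and 66.2 CPM in glucose, and ELM1 10.2 and 13.3 CPM, against 27.9 and 22.1 CPM. In BY4741 the libraries of the 2 conditions overlapped for these genes: SAK1 had 50.7 and 65.1 CPM starved, against 43.3 and 56.2 CPM in glucose. Within each pair of BY4741 libraries with the same number, SAK1, TOS3, ELM1 and REG1 were higher in the starved library. With SIP2, that direction was seen in both BY4741 pairs for 5 of 10 members, against 34.4% of all genes. That measure is looser than the separation of groups given for EY0690, so the 2 counts are not alike. The labels do not say that libraries with the same number were paired. The interaction in footprints had a member median of -0.56, against -0.07 for all genes, and it passed for 0 members and for 0% of genes. Leaving out 1 library could turn the sign of this interaction for SNF1, SNF4, SIP2, GAL83 and GLC7. In edgeR 0 members had an unadjusted p under 0.05 in it, and DESeq2 called 0. Scaling by library size alone moved the median of all genes in that interaction by -0.43.

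**Figure D2:**
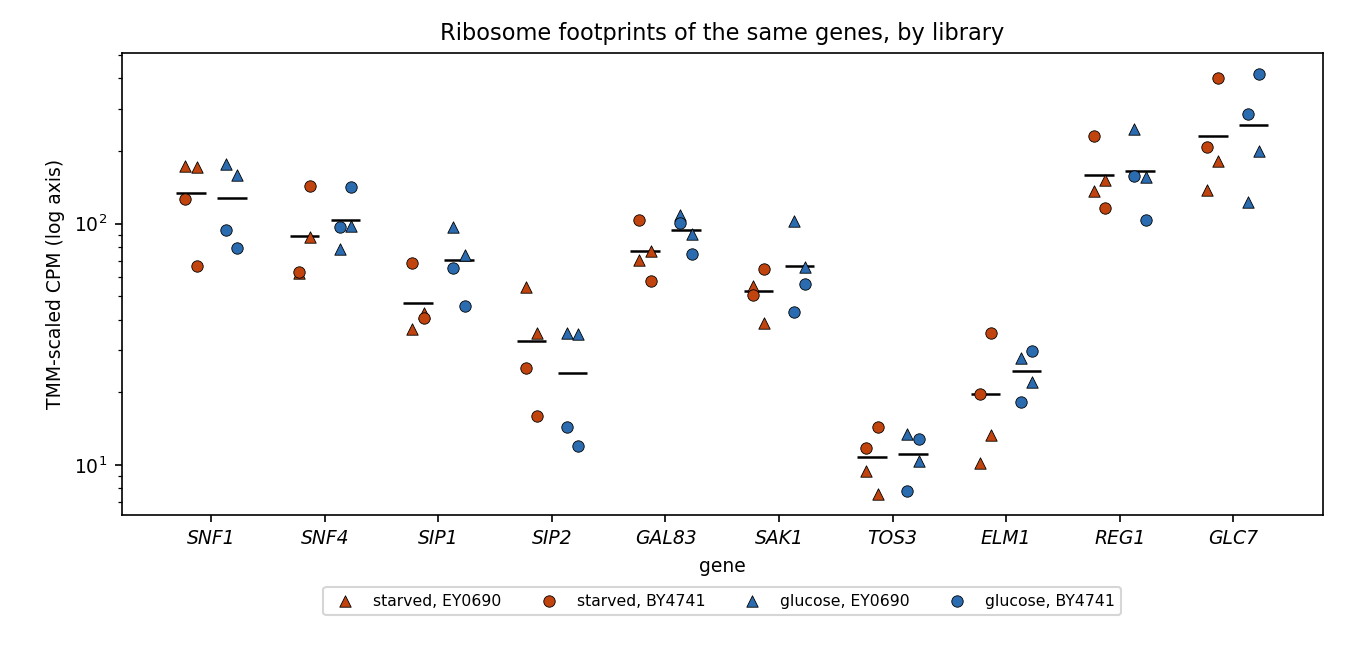
Each point is the ribosome footprint level of 1 library, in TMM-scaled CPM on a log axis, drawn as for polyA RNA with starved left of glucose. Over both strains starved and glucose libraries overlap in all 10 genes (5.56% of all genes do not overlap), and SNF1 and SIP2 are higher, and GLC7 lower, in EY0690 (triangles) than in BY4741 (circles).

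Footprints relative to polyA RNA (ribosome occupancy) were compared in 1 model over 16 libraries. No member passed for the change on starvation, against 1.34% of all genes. By edgeR 2 members had an unadjusted p under 0.05, and DESeq2 called 0. These were SIP2, at -0.89 ± 0.30 (unadjusted p = 0.00961, adjusted p = 0.153), and GAL83, at -0.74 ± 0.28 (unadjusted p = 0.0194, adjusted p = 0.207), whose mRNA was higher and whose footprints were not called. The 95% interval was -1.53 to -0.25 for SIP2 and -1.34 to -0.14 for GAL83. Both passed when the first starved BY4741 footprint library was left out, at -1.09 (adjusted p = 0.0411) for SIP2 and -1.01 (adjusted p = 0.0320) for GAL83, and in none of the other alternatives. With unselected RNA as the denominator SIP2 stood at -0.61 and GAL83 at -0.68, and no gene of the table passed. The other members ranged from -0.55 for SIP1 to 0.30 for SAK1.

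**Figure D3:**
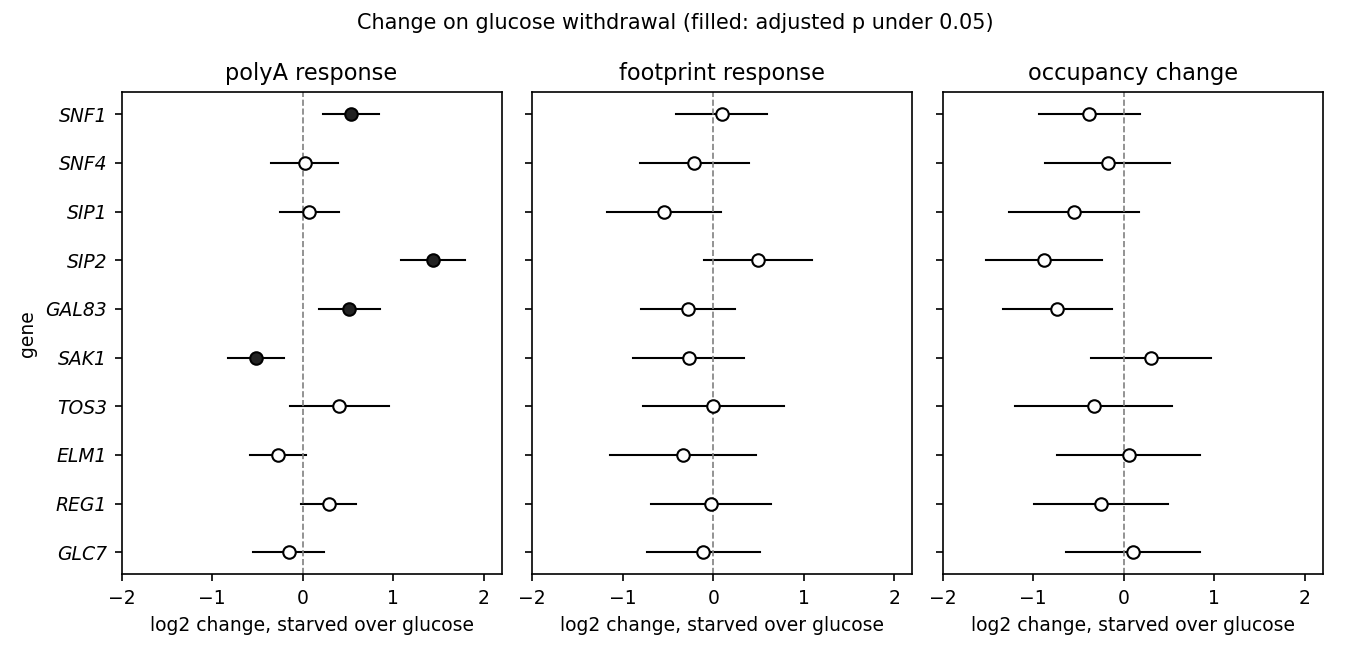
Log2 change, starved over glucose, of the 10 genes in polyA RNA, in footprints and in footprints relative to polyA RNA, with 95% intervals from edgeR. Filled points passed at an adjusted p under 0.05: SNF1, SIP2, GAL83 and SAK1 in polyA RNA, and none in the other panels.

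Within each condition, the level of footprints per polyA RNA was compared with that of the average gene. In starved cells 6 members passed (46.2% of genes did, 23.5% above and 22.7% below), SNF1 above the average gene and SNF4, SIP2, TOS3, ELM1 and GLC7 below it. In glucose 7 passed (45.0% of genes did, 21.6% above and 23.4% below), SNF1, SIP1, GAL83 and REG1 above and SNF4, ELM1 and GLC7 below. SNF1 had the highest level of the members in both conditions, 0.76 ± 0.19 starved (edgeR adjusted p = 0.00415) and 1.14 ± 0.19 in glucose (adjusted p = 0.000600). GLC7 had the lowest, -0.99 ± 0.25 starved (adjusted p = 0.00458) and -1.09 ± 0.25 in glucose (adjusted p = 0.00325).

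These levels depended on the scale and on the RNA used as the denominator. Library size alone moved the median of all genes by -0.61 in starved cells and -0.53 in glucose. On that scale the calls were 0 above and 6 below in starved cells and 1 above and 4 below in glucose, where 55.5% of all genes were called in starved cells and 50.9% in glucose. With unselected RNA in place of polyA RNA, an alternative added after seeing the data, 0 members passed in either condition, where 7.65% of genes passed in starved cells and 0.0996% in glucose. By that measure SNF4 stood at 0.13 ± 0.30, SIP1 at -0.37 ± 0.32, REG1 at -0.27 ± 0.35 and GLC7 at 0.41 ± 0.32 in glucose. Each estimate lay on the other side of 0, without passing the test there. SNF1 stood at 0.00 in starved cells and 0.33 in glucose.

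PolyA and unselected libraries measured the same genes at different levels. With all libraries on 1 scale, the polyA level divided by the unselected level was 2.17 in EY0690 and 2.41 in BY4741 for GLC7, and 1.33 in EY0690 and 2.0 in BY4741 for SNF4. The ratio was below 1 for SNF1 (0.762 in EY0690 and 0.432 in BY4741), REG1 (0.674 in EY0690 and 0.422 in BY4741), SIP1 (0.547 in EY0690 and 0.448 in BY4741) and SAK1 (0.632 in EY0690 and 0.589 in BY4741). For SIP2, GAL83, TOS3 and ELM1 the strains lay on opposite sides of 1. GLC7 and SNF4 have the shortest coding sequences of the 10, at 939 and 969 bases, and SAK1 and REG1 the longest, at 3429 and 3045 bases. Whether length has a part in these ratios was not tested.

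**Figure D4:**
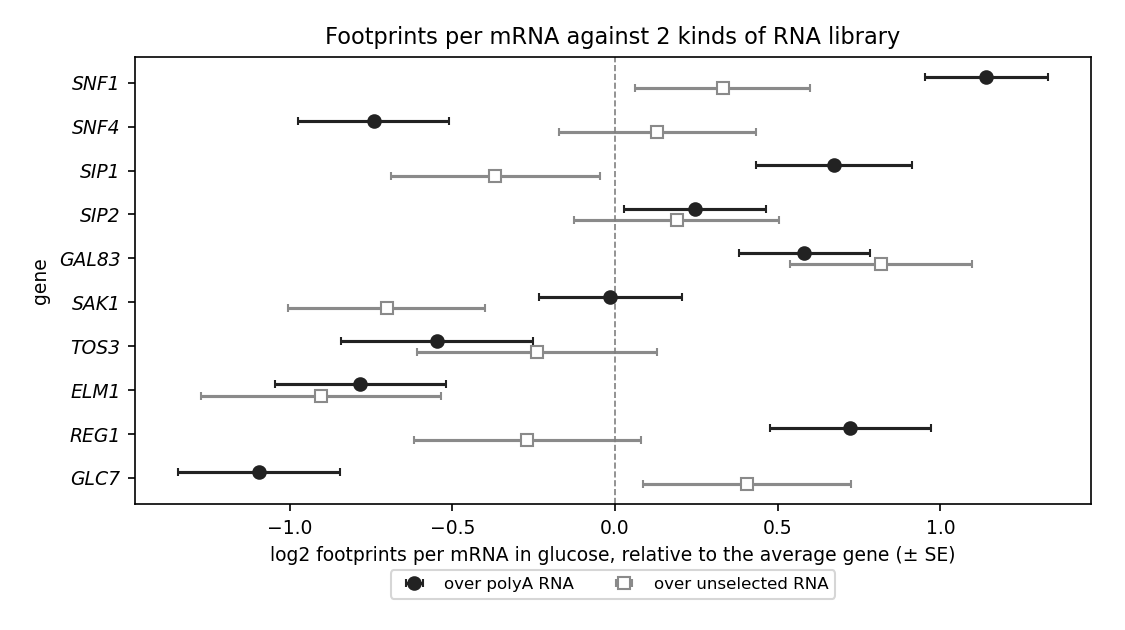
Log2 footprints per mRNA in glucose relative to the average gene, with SE, using polyA RNA (filled circles) or unselected RNA (open squares) as the denominator. SNF4, SIP1, REG1 and GLC7 stand on opposite sides of 0 with the 2 denominators.

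Leaving out 1 library at a time kept SNF1, SNF4 and GLC7 past the threshold in starved cells and SNF1 and GLC7 in glucose. The other calls were lost in places: in starved cells ELM1 without 7 of the 16 libraries, SIP2 without 4 and TOS3 without 3, and in glucose SIP1 and REG1 without 5 each, GAL83 without 4, ELM1 without 3 and SNF4 without 2. Members called then numbered 3 to 6 in starved cells and 2 to 7 in glucose.

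Put in order of CPM per kilobase of coding sequence, the phosphatase stood at the top and an upstream kinase at the bottom. In polyA RNA GLC7 averaged 716 ± 132 starved and 797 ± 142 in glucose (SD, n = 4 each), above SNF4 at 264 ± 46.0 starved and 261 ± 35.8 in glucose. GAL83 followed at 106 ± 25.3 starved and 74.9 ± 18.1 in glucose. These 3 neighbours did not overlap in either condition, and in glucose all neighbours further down the order overlapped. TOS3 was lowest in glucose at 13.6 ± 4.05. Unselected RNA, with 1 value per strain and condition, also put GLC7 and SNF4 first, but GAL83 below REG1 and SNF1. In glucose it gave GLC7 284 in EY0690 and 209 in BY4741, and REG1 82.2 in both strains. SNF1 had 67.9 in EY0690 and 60.5 in BY4741, and GAL83 52.3 in EY0690 and 55.2 in BY4741. In footprints per kilobase the order again began with GLC7 (247 ± 123 starved, 273 ± 135 in glucose) and SNF4 (92.1 ± 39.0 starved, 107 ± 27.8 in glucose) and ended with TOS3 (6.41 ± 1.73 starved, 6.59 ± 1.52 in glucose), and in starved cells every neighbouring pair overlapped.

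The beta subunits are alternatives to one another, so their shares of the summed CPM per kilobase are given too. SIP2 made up 30.9% ± 8.73 of the beta subunit polyA RNA in starved libraries and 18.1% ± 5.65 in glucose libraries (SD, n = 4 each). GAL83 was the largest share of the polyA RNA at 54.4% ± 6.19 starved and 60.3% ± 4.61 in glucose, and SIP1 made up 14.7% ± 4.10 starved and 21.6% ± 5.07 in glucose. In footprints SIP2 held 24.2% ± 10.4 starved and 15.1% ± 5.69 in glucose. Of the upstream kinases, TOS3 held 29.1% ± 6.53 of the polyA RNA starved and 18.3% ± 2.81 in glucose, and SAK1 30.6% ± 2.63 starved and 38.8% ± 2.92 in glucose. ELM1 held the largest mean share of it, 40.3% ± 4.97 starved and 43.0% ± 3.54 in glucose. In the kinase footprints SAK1 held 49.2% ± 7.74 starved and 49.5% ± 6.64 in glucose. Unselected RNA, with 1 value per strain and condition, gave other shares, though those of SIP2 and TOS3 were again larger starved. SIP2 held 34.3% starved and 23.0% in glucose in EY0690, and 19.8% starved and 10.8% in glucose in BY4741. SIP1 held 26.9% starved and 36.6% in glucose in EY0690, and 27.9% starved and 40.2% in glucose in BY4741. GAL83 held 38.9% starved and 40.5% in glucose in EY0690, and 52.3% starved and 49.0% in glucose in BY4741. SAK1 held 39.2% starved and 45.8% in glucose of the kinase RNA in EY0690, and 45.4% starved and 53.8% in glucose in BY4741. TOS3 held 27.9% starved and 14.7% in glucose in EY0690, and 22.4% starved and 10.3% in glucose in BY4741. ELM1 held 32.9% starved and 39.5% in glucose in EY0690, and 32.1% starved and 35.9% in glucose in BY4741. The shares were not tested, being ratios of values tested above.

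**Figure D5:**
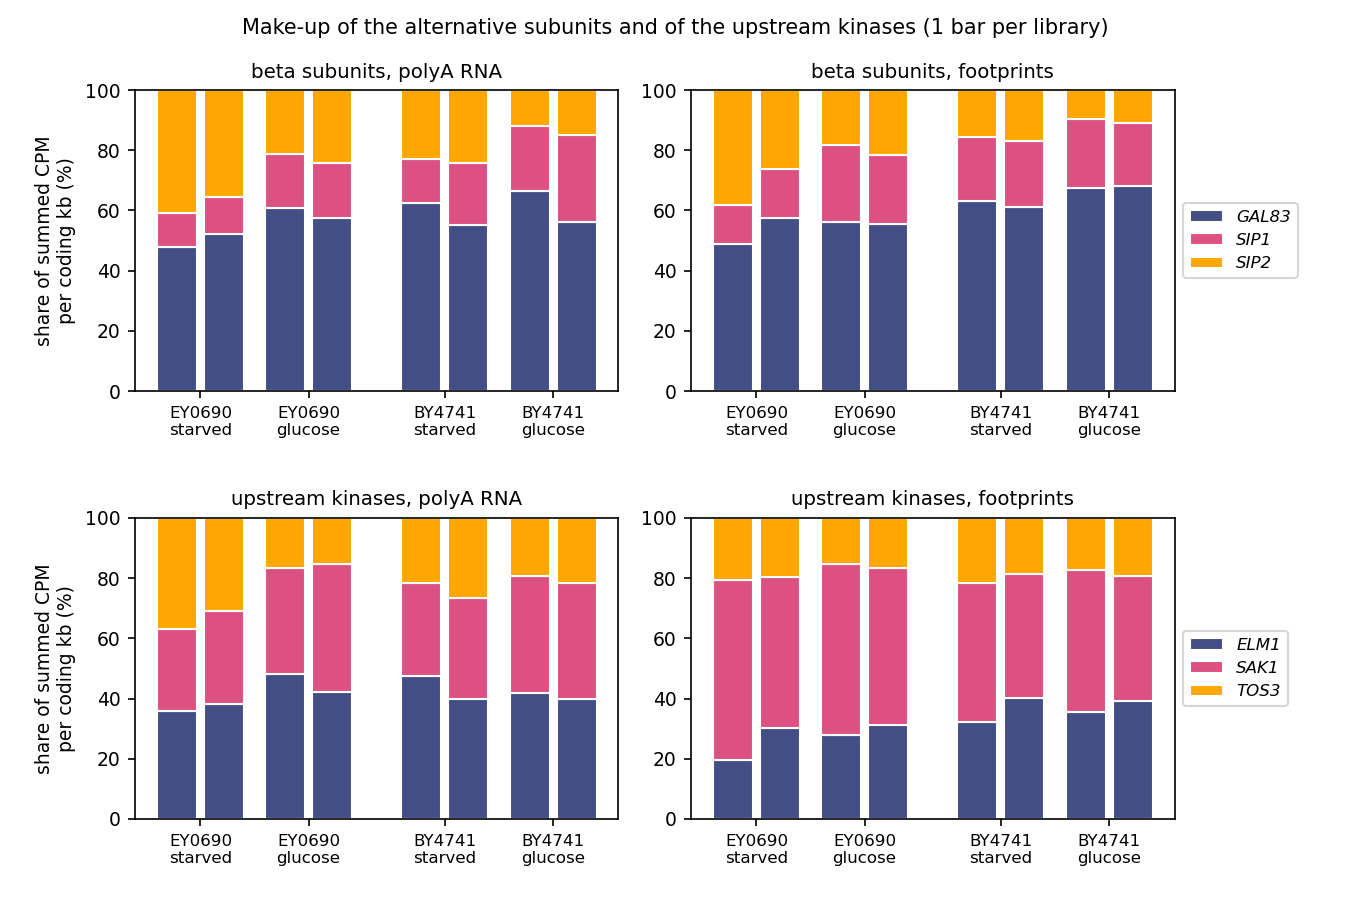
Each bar is 1 library and shows the shares (%) of summed CPM per coding kilobase held by the 3 beta subunits (top) and the 3 upstream kinases (bottom), in polyA RNA (left) and footprints (right). The SIP2 part of the polyA bars is larger in starved than in glucose libraries of each strain.

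The strains differed in several members at both conditions together. In polyA RNA, SIP2, SNF1, GAL83 and REG1 were higher in EY0690 than in BY4741 and no member was lower, 4 called against 37.2% of genes (20.2% higher and 17.0% lower). SIP2 was higher by 1.42 ± 0.16 (edgeR adjusted p = 7.1e-05), beside a change of 1.44 on starvation. SNF1 was higher by 0.69 ± 0.14 (adjusted p = 0.00240), GAL83 by 0.54 ± 0.16 (adjusted p = 0.0164) and REG1 by 0.52 ± 0.14 (adjusted p = 0.0128). GAL83 lost the call without the second glucose BY4741 library (0.49) or the first glucose EY0690 library (0.50), and REG1 without the second glucose EY0690 library (0.40). SAK1, at -0.33 ± 0.14, gained one without the first starved BY4741 library (-0.45). In unselected RNA, put on 1 scale with the other libraries and averaged over the conditions, SIP2 was again higher in EY0690, with 49.3 CPM against 27.5 CPM in BY4741. The other 3 were not: SNF1 had 133 CPM in EY0690 and 146 CPM in BY4741, GAL83 66.8 CPM in EY0690 and 87.8 CPM in BY4741, and REG1 231 CPM in EY0690 and 261 CPM in BY4741. Those values were not tested, and in them strain and kind of library, pooled in EY0690 and total RNA in BY4741, cannot be told apart.

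In footprints 3 members passed between strains, against 21.9% of genes (11.2% higher and 10.7% lower): SIP2 (1.29 ± 0.28, edgeR adjusted p = 0.00837) and SNF1 (0.90 ± 0.23, adjusted p = 0.0190) were higher in EY0690, and GLC7 (-1.03 ± 0.29, adjusted p = 0.0264) was lower. GLC7 had 139 and 182 CPM starved and 123 and 200.02 CPM in glucose in EY0690, against 207 and 400.0 CPM starved and 286 and 418 CPM in glucose in BY4741. SNF1 had 173 and 172 CPM starved and 177 and 158 CPM in glucose in EY0690, against 127 and 66.9 CPM starved and 94.0 and 79.4 CPM in glucose in BY4741. For these 3 genes all 4 EY0690 libraries lay apart from all 4 BY4741 libraries, as for 20.4% of all genes.

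Of the 3, SIP2 kept its call on leaving out any 1 footprint library. SNF1 and GLC7 each lost theirs without the second glucose BY4741 library or without any 1 of the 4 EY0690 libraries, where SNF1 stood between 0.84 and 0.93 and GLC7 between -1.15 and -0.88. SNF4 gained one without the first starved BY4741 library (-0.63). Without both BY4741 footprint libraries numbered 2, GLC7 stood at -0.61 (adjusted p = 0.118), SNF1 at 0.64 (adjusted p = 0.0788) and SIP2 alone of the members passed, against 21.1% of genes. Library size alone gave SIP2 1.19, short of the threshold. Footprints per polyA RNA did not differ between strains past the threshold in any member (0.0199% of genes passed). GLC7 had -1.17 ± 0.35 (adjusted p = 0.233), and -0.78 without those libraries (adjusted p = 0.168, where 3.57% of genes passed).

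The share of footprints in the start region was compared between conditions for the 7 members with enough counts there, and 0 passed, against 3.41% of genes. By edgeR 0 of the 7 had an unadjusted p under 0.05. Over all genes the share was 11.7% in starved libraries and 10.3% in glucose libraries, summed. The second glucose BY4741 library, with 8110916 downstream counts and a share of 8.16%, weighed most in the glucose sum. By library the conditions overlapped. EY0690 had 14.4% and 11.9% starved, against 8.60% and 10.8% in glucose. BY4741 had 11.8% and 10.6% starved, against 14.5% and 8.16% in glucose. GLC7 had 372 start-region counts beside 3335 downstream in starved libraries, 10.04%, and 331 beside 5356 in glucose libraries, 5.82%, and its fitted change was 0.72 ± 0.44 (adjusted p = 0.412). The BY4741 libraries numbered 2 held 2618 of these downstream counts starved and 4092 in glucose, with shares of 6.63% and 3.81%. Elsewhere the GLC7 share was 18.3% to 24.3% starved and 6.30% to 12.8% in glucose. GAL83 had 11.8% starved and 4.69% in glucose, but 52 of its 97 starved start-region counts came from the first EY0690 library, where the share was 34.9%, against 5.11% to 10% in the other starved libraries.

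SAK1, SIP2 and TOS3 had too few start-region counts to be tested. SAK1 had 3 start-region counts beside 625 downstream in starved libraries, 0.478% (exact binomial 95% interval 0.0986% to 1.39%), and 33 beside 850 in glucose libraries, 3.74% (2.59% to 5.21%). Of the 33 glucose counts, 15 and 16 came from the BY4741 libraries, and EY0690 had 0 and 2. TOS3 had 14.6% starved and 3.89% in glucose, on 23 and 7 start-region counts. Of the 23 starved counts, 8 and 14 came from the BY4741 libraries, and EY0690 had 0 and 1 starved and 1 and 1 in glucose. The intervals given for SAK1 cover counting error only, and these shares pool libraries that differ.

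The promoters of the members were searched for words bound by factors of the glucose and stress responses, in the 500 bases before each start codon and on both strands. The stress response element AGGGG, the word bound by Msn2 and Msn4, was present before 6 of 10 members, against 34.4% of 5379 genes. SNF1 and REG1 had 2 copies each and SIP2, GAL83, TOS3 and GLC7 had 1 each, and SNF4, SIP1, SAK1 and ELM1 had none. The windows of the members that were higher on starvation in polyA RNA are shown with the word in capitals, read on the strand of the gene, where CCCCT is the same word on the other strand. They lie at IV:1411993-1412022 and IV:1412060-1412089 (SNF1, plus strand), VII:97004-97033 (SIP2, plus strand) and V:210379-210408 (GAL83, minus strand), in build R64.
SNF1 first window: tctcgtagcggaAGGGGatggaaattttta
SNF1 second window: aggtagcgttatAGGGGccaagacatagct
SIP2 window: taacctttacggCCCCTttttatctcacca
GAL83 window: gaccaatttgctCCCCTttggaaaagctca

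The half-sites CGG and GGA with 6 bases between them, a form of the site bound by Cat8 and Sip4, was found before SIP2 alone among the members and before 6.58% of all genes. For the core of the Mig1 site the word GCGGGG was searched, with GTGGGG as another form, CCGGGG as a further form and CTGGGG as the last form, and a match was found before GLC7 alone and before 22.3% of all genes. None of these forms contains AGGGG. The SIP2 window, at VII:97180-97209 on the plus strand, is shown with the match, on the other strand, in capitals. A match is a description of the letters and not evidence of binding.
SIP2 Cat8 word: ttatattgcTCCCTTGGACCGagtaaagat

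Genes with the pattern most like that of a member were sought by correlation of log2 CPM over 16 libraries, centred within footprints and within polyA RNA, across 5017 other genes. The libraries share strain, condition and depth, so these values describe likeness only. ATG15, HRK1 and NPR1 were most like SNF1 (r = 0.98 each), and SIP2 had r = 0.92 with SNF1, the closest pair among the members. SOL2 (0.94), RVS167 (0.92) and PBP1 (0.91) were most like GAL83. SYH1 (0.94), SGF73 (0.93) and UME6 (0.89) were most like REG1, and STB4 (0.93), SGO1 (0.90) and BUD8 (0.89) most like SAK1.

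Other genes of the pathway, from lists chosen by role, were read from the same fits. Of 12 transcription factors that act under Snf1, 8 were higher and 1 lower in polyA RNA on starvation, against 20.4% of all genes higher and 19.2% lower. The median change was 1.28, against -0.03 for all genes. CAT8, an activator of gluconeogenic genes, averaged 86.1 ± 17.5 CPM starved and 5.49 ± 2.8 CPM in glucose (SD, n = 4 each), a change of 4.09 ± 0.22. ADR1, an activator of genes for ethanol and fatty acid use, averaged 450 ± 88.7 CPM starved and 52.8 ± 14.7 CPM in glucose, 3.07 ± 0.23, and GSM1 changed by 2.01 ± 0.20. NRG1, a repressor of glucose-repressed genes, was the 1 that fell, by 0.67 ± 0.24 (edgeR adjusted p = 0.0449). In footprints 3 of the 11 tested were higher, against 2.93% of all genes. In footprints per polyA RNA ADR1 was lower, at -1.71 ± 0.35 (edgeR adjusted p = 0.0244), where 1.34% of all genes passed.

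Of 16 other regulators of the Glc7 phosphatase, 7 were higher and 0 lower, so 7 of 16 passed, against 39.6% of all genes. Of the 7, GAC1 and REG2 met the filter on low counts through their starved libraries, so their place in that count was fixed in part by the filter. GAC1, which directs Glc7 to glycogen synthase, averaged 90.5 ± 40.1 CPM starved and 1.64 ± 2.48 CPM in glucose. REG2, a relative of REG1, averaged 24.5 ± 21.4 CPM starved and 0.946 ± 0.648 CPM in glucose, and GIP2 65.2 ± 40.4 CPM starved and 5.40 ± 2.34 CPM in glucose. REG1 itself averaged 179.6 ± 33.4 CPM starved and 148 ± 39.4 CPM in glucose. In footprints per polyA RNA, edgeR called GAC1 and GIP2 lower, where 1.34% of all genes passed. No size is given for these calls and no result is drawn from them, because glucose counts were low. The 4 glucose libraries together held 19 polyA and 34 footprint counts of GAC1, and 69 polyA and 37 footprint counts of GIP2.

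Of 15 glucose-repressed genes whose induction needs Snf1, 13 were tested in polyA RNA and all 13 were called higher, where 20.4% of all genes were. In footprints 9 were tested and 4 called higher, where 2.93% of all genes were. Of those tested, POX1 and POT1 in polyA RNA and JEN1, PCK1 and CTA1 in footprints met the filter on low counts through their starved libraries, so these counts are a description only. JEN1, the lactate and pyruvate transporter, averaged 544 ± 231 CPM starved and 7.36 ± 3.15 CPM in glucose, a change of 6.23 ± 0.38. POT1, an enzyme of fatty acid oxidation, averaged 31.4 ± 24.7 CPM starved and 0.171 ± 0.342 CPM in glucose. POX1, of the same pathway, averaged 32.5 ± 16.6 CPM starved and 0.422 ± 0.496 CPM in glucose, and both had too few glucose counts for a fold. Of 11 proteins that bind or act beside Snf1, 5 were higher and 1 lower, against 20.4% of all genes higher and 19.2% lower. Their median change was 0.36. MTH1, a corepressor of hexose transporter genes, changed by 4.15 ± 0.23, SNF3, a glucose sensor, by 2.27 ± 0.20 and SIP5 by 1.33 ± 0.23, and PTC1, a protein phosphatase, fell by 0.45 ± 0.15 (edgeR adjusted p = 0.0286).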

How the data were processed

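Footprints and RNA of 22 samples in 14 groups were deposited by the authors as 1 table of read counts per gene (5381 genes), in an initiation region and a downstream region, per the file headers. Bowtie 0.12.8 and build R64 are named in the submitters' processing notes. How reads were counted and where each region ends is not given in the sources used here. Of the per-sample count columns, 2 were not used, the initiation-region counts of the pooled EY0690 RNA; its downstream counts were used as the authors' pooled values. Blank cells were read as 0. Identifiers of 5380 genes matched the R64 annotation, from which all coordinates and sequences printed come, because the coordinates listed in the table equal those of the annotation for only 759 genes.

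Downstream counts were tested with edgeR 4.0.16 in R 4.3.3 (limma 3.58.1), with TMM scaling and strain as a covariate, keeping genes with 10 or more counts in 4 or more libraries per assay, at an adjusted p threshold of 0.05. Each SE came from the F value and the log2 change. The start-region test needed 5 or more start-region counts in 4 or more footprint libraries. DESeq2 1.42.0, library size, no filter, both regions summed, each strain alone, each library left out and other RNA were alternatives, and the tests were tested on simulated data. Libraries with the same number deviated together, by correlations of 0.297 in EY0690 and 0.149 in BY4741 polyA RNA and 0.204 in EY0690 and 0.687 in BY4741 footprints, so the number was also used as a replicate block. Named genes were all 10 members, the 3 largest called rises and falls in polyA RNA per list, every listed gene called in occupancy, and the 3 genes most like 4 of the members. The members, lists and rules were chosen with earlier results of these data known. One listed gene, FBP1, is not analysed here.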

Additional observations from a re-analysis of the deposited data

How the results depend on the processing

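Members called in the polyA response numbered 4, 3 to 5 on leaving out 1 library, and 1 in BY4741 alone, where 2 libraries face 2. In footprints the count was 0, 0 on leaving out any 1 library and 1 (SIP1) in EY0690 alone. The occupancy change gave 0, and 0 to 2 on leaving out 1 library. Occupancy levels gave 6 (3 to 6) in starved cells and 7 (2 to 7) in glucose, and 0 in both with unselected RNA as the denominator, where SNF4 (0.13), SIP1 (-0.37), REG1 (-0.27) and GLC7 (0.41) changed sign in glucose. Strain differences gave 4 (3 to 5) in polyA RNA and 3 (1 to 4) in footprints, and 1 in footprints without both BY4741 footprint libraries numbered 2. Both interactions and the start-region share gave 0 on leaving out any 1 library. The causes were not tested.

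The replicate block changed no member count (4 in polyA RNA, 0 in footprints, occupancy change and both interactions). Over all genes it gave 429 calls against 160 in footprints, 246 against 67 in occupancy change and 12 against 0 in the footprint interaction. Calls over all genes were 2103 in the polyA response (418 to 2653 over the alternatives), 160 in footprints (0 to 609), 67 in occupancy change (0 to 246), 1097 in the strain difference of footprints (534 to 1756), 9 in the polyA interaction (0 to 74), 0 in the footprint interaction (0 to 59) and 133 in the start-region share (38 to 272). In occupancy levels they were 2259 in glucose, with 1425 at the lowest. Depth limits the EY0690 footprints most, where TOS3 had 8 to 13 counts per library.

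Many member values, not all of them small, passed in neither fit and changed sign (all on the log2 scale). With library size alone these were, in the polyA response, SNF4 (-0.070) and SIP1 (-0.030), and in footprints SNF1 (-0.095) and TOS3 (-0.15). The occupancy change of ELM1 was then -0.046, and the strain difference of GAL83 in footprints -0.014. Occupancy levels under that scaling were -0.52 for SIP1, -0.30 for SAK1 and -0.20 for REG1 in starved cells, and -0.29 for SIP2 in glucose. Its polyA interactions were SNF1 (-0.059), SIP1 (-0.12), SIP2 (-0.10) and SAK1 (-0.087), its footprint interaction of GLC7 was -0.28, and its start-region shares were SNF4 (0.13) and SIP1 (0.11). In BY4741 alone, SNF4 (-0.15) and TOS3 (-0.00073) turned in polyA RNA, SAK1 (0.22), ELM1 (0.21) and REG1 (0.42) in footprints, and TOS3 (0.29) and GLC7 (-0.17) in occupancy change. In EY0690 alone, TOS3 (-0.47) turned in footprints, and SAK1 (-0.26) and ELM1 (-0.65) in occupancy change. DESeq2 gave 0.049 for SAK1 in the glucose occupancy level, -0.0044 for both SIP1 and SIP2 in the polyA interaction and 0.027 for SNF4 in the footprint interaction. Without a filter on low counts, TOS3 (-0.0081) turned in footprints, SAK1 (0.020) in the glucose occupancy level and SNF4 (0.012) in the start-region share. Without both BY4741 footprint libraries numbered 2, the footprint response of TOS3 (-0.024), the occupancy change of ELM1 (-0.24) and the starved occupancy level of GAL83 (0.0096) turned. That setting also turned the footprint strain differences of SNF4 (0.045), SIP1 (-0.21), GAL83 (-0.25), TOS3 (0.10) and REG1 (-0.19), the footprint interaction of SNF4 (0.40) and the start-region share of ELM1 (0.33). The replicate block gave 0.0019 for GLC7 in the polyA interaction and 0.050 for SNF4 in the footprint interaction. With both regions summed, the occupancy change of ELM1 was -0.090, and with 1 size per library the start-region shares were SNF4 (0.33) and SIP1 (0.35). In the fit of polyA, total and pooled unselected RNA together, GLC7 was 0.027. With unselected RNA as the denominator, the occupancy change of GLC7 was -0.44, and in starved cells the levels were SIP1 (-0.81), GAL83 (0.13), SAK1 (-0.39) and REG1 (-0.31).

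Leaving out 1 library also turned signs, over these ranges. In the polyA response SNF4 ran from -0.057 to 0.20 and SIP1 from -0.018 to 0.19. In footprints SNF1 ran from -0.12 to 0.25, SNF4 from -0.51 to 0.0042, TOS3 from -0.19 to 0.15, REG1 from -0.34 to 0.20 and GLC7 from -0.31 to 0.082. Occupancy change ran from -0.36 to 0.21 for ELM1 and from -0.084 to 0.25 for GLC7. Occupancy levels ran from -0.16 to 0.28 for SIP1 in starved cells and from -0.24 to 0.19 for SAK1 in glucose. Strain differences ran from -0.019 to 0.25 for GLC7 in polyA RNA, and in footprints from -0.11 to 0.38 for SIP1, -0.085 to 0.27 for GAL83, -0.015 to 0.46 for SAK1 and -0.051 to 0.52 for REG1. The polyA interaction ran from -0.088 to 0.25 for SNF1, -0.22 to 0.24 for SIP1, -0.17 to 0.20 for SIP2 and -0.39 to 0.16 for GAL83. It ran from -0.13 to 0.28 for SAK1, -0.35 to 0.058 for REG1 and -0.35 to 0.25 for GLC7. The footprint interaction ran from -0.51 to 0.45 for SNF1, -0.44 to 0.70 for SNF4, -0.64 to 0.14 for SIP2, -0.67 to 0.20 for GAL83 and -0.15 to 0.76 for GLC7. Start-region shares ran from -0.14 to 0.42 for SNF1, -0.21 to 0.12 for SNF4, -0.42 to 0.31 for SIP1, -1.55 to 0.75 for ELM1 and -1.19 to 0.33 for REG1. The causes of these changes of sign were not tested.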
